A study of Homo sapiens with 24 samples.

Results

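The heat shock proteins of the cytosol and of the mitochondrial matrix were followed in 4 human cancer cell lines treated with Ocoxin, a supplement that mixes plant extracts, amino acids, vitamins and minerals. The 10 genes, of 58051 genes counted, were chosen by name, but with earlier results of these data known. They were HSPA1A, HSPA1B, HSPA8, DNAJB1, HSPH1, HSP90AA1, HSPB1 and BAG3 for the cytosol, and HSPD1 and HSPE1 for the mitochondria. The lines were SW620 (COAD, colorectal adenocarcinoma), BxPC-3 (PAAD, pancreatic adenocarcinoma), LNCaP (PRAD, prostate adenocarcinoma) and HCC-70 (TNBC, triple negative breast cancer), with 3 control and 3 Ocoxin libraries each after 48 h. The dilution of Ocoxin was 50-fold in PRAD, 500-fold in PAAD and 700-fold in both TNBC and COAD, so dose and cell line cannot be told apart except between COAD and TNBC. The medium with Ocoxin held 1% serum, and the RNA came from adhered cells, so cells that had detached were not measured. Each cancer is represented by 1 line, the labels give the dilution for the control libraries too, and nothing says whether the 3 libraries of a group came from separate cultures, so p-values measure only the spread between these libraries.

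In the heat shock response, unfolded proteins draw chaperones away from the transcription factor HSF1, which then forms trimers and binds heat shock elements, inverted repeats of the unit nGAAn, in front of chaperone genes. HSP70 proteins fold clients in cycles of ATP, J proteins such as DNAJB1 bring clients to them, HSP110 and BAG proteins release the nucleotide, HSP90 matures kinases and receptors, and small heat shock proteins such as HSPB1 hold unfolded proteins. In the mitochondrial matrix, HSPD1 (HSP60) and HSPE1 (HSP10) form the barrel and the lid of the chaperonin, and their genes lie head to head.

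Heat shock elements are shown because they are the sequence that places these genes under HSF1. The 300-base windows around RefSeq start sites (GRCh38.p14, 250 bases before to 50 after) gave 14 windows for the 10 genes, each identical to hg38. They were searched on both strands for 3 units in a row (GAA, TTC and GAA, or TTC, GAA and TTC, with any 2 bases NN between neighbours), which 0.490% of 35116 windows of all genes hold, and for 2 units (GAANNTTC or TTCNNGAA, also counted inside the 3-unit motif), which 13.5% hold. At least 1 window held 3 units for 3 genes, HSPA8, HSP90AA1 and HSPD1. A further 4 genes, HSPA1A, HSPA1B, HSPB1 and DNAJB1, held 2 units only, and no match was in the windows of BAG3, HSPH1 and HSPE1. One or more elements of each gene follow, with the matching units in capitals and each written on the strand of its gene:
HSPA8, chr11:123062345-123062374, minus strand: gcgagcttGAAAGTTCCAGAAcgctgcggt
HSPA8, chr11:123062170-123062199, minus strand: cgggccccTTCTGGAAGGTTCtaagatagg
HSP90AA1, chr14:102087111-102087140, minus strand: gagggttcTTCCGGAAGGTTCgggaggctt
HSPD1, chr2:197500061-197500090, minus strand: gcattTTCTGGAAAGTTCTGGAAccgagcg
HSPA1A, chr6:31815426-31815455, plus strand: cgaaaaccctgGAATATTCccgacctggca
HSPA1B, chr6:31827622-31827651, plus strand: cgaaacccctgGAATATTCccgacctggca
HSPB1, chr7:76302480-76302509, plus strand: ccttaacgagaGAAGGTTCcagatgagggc
DNAJB1, chr19:14518456-14518485, minus strand: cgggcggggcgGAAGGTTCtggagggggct
The HSPD1 element spans 18 bases, which hold 2 overlapping 3-unit matches, and lies before 1 of 2 annotated HSPD1 start sites (197499840) and after the other (197500274), while HSPE1 starts at 197500379 and runs in the opposite direction. HSPA1A and HSPA1B carry the same 8-base match about as far before their starts. A match of letters is a description, and binding by HSF1 was not measured.

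The counts came from 25160757 to 39009959 reads on genes per library in COAD, PAAD and TNBC and from 9063968 to 9520969 in PRAD, which was counted in a separate run. In COAD depth followed treatment, with 25160757 to 29670036 in the Ocoxin libraries and 31265452 to 34397801 in the controls. Levels are CPM, counts scaled to the library total after TMM normalization within a line. A gene was called changed at an adjusted p under 0.05 in the quasi-likelihood test of edgeR, adjusted by Benjamini-Hochberg over every gene tested in that line. The median log2 fold change of all genes tested lay between -0.0053 and 0.0088 in the 4 lines.

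HSPA1A and HSPA1B, the stress-induced HSP70 genes whose coding regions are nearly the same, could not be measured. Each was listed at 0 in 22 of 24 libraries and had 2 counts in all. Of the 100-base stretches of the HSPA1A transcript 72.4% occur in HSPA1B, so most reads of the pair cannot be told apart. Of the neighbouring genes looked at, LSM2 had 106 counts or more and NEU1 156 or more in every library. HSPA1L, another HSP70 gene of the locus, was at 0 in 14 libraries and had 34 counts in all. A value of 0 here is taken as no statement on expression, and why both genes are at 0 was not tested. The other 8 genes, 6 cytosolic and 2 mitochondrial, passed the filter on low counts in every line.

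In TNBC, 6 of these 8 genes were downregulated by Ocoxin and none was upregulated, where 21% of all genes tested were called with 11.3% lower and 9.65% higher. Of the cytosolic genes 5 of 6 fell, HSPA8, HSP90AA1, HSPH1, DNAJB1 and HSPB1, and of the mitochondrial genes HSPE1 fell. The decreases were small, with log2 fold changes between -0.16 and -0.30. In all 6 genes every Ocoxin library lay below every control library, which held for 19.8% of all genes tested. BAG3 and HSPD1 were not called, and HSPD1 had all Ocoxin libraries above the controls, as 18.3% of all genes had.

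HSPA8 encodes HSC70, the HSP70 that cells make without stress. In TNBC it had 1072, 1044 and 1059 CPM in the control libraries and 913, 899.9 and 903 CPM in the Ocoxin libraries. The groups were far apart compared with the spread within each. This gave a log2 fold change of -0.23 ± 0.030 (SE, n = 3 against 3) with an adjusted p of 0.000272 in edgeR.

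HSP90AA1, the stress-responsive HSP90, had 2093, 2049 and 1983 CPM in the TNBC controls against 1739, 1752 and 1620 CPM with Ocoxin. Ocoxin replicate 3 was the lowest library, and the groups did not overlap. Ocoxin gave a log2 fold change of -0.26 ± 0.036 (SE) with an adjusted p of 0.000386 in edgeR. HSP90AB1, the HSP90 made without stress, was not a member and had a log2 fold change of -0.04 in TNBC (adjusted p = 0.367 in edgeR).

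HSPB1 (HSP27), the small heat shock protein, had 301, 321 and 295 CPM in the TNBC controls and 268, 261 and 226 CPM with Ocoxin. All Ocoxin libraries were below all controls, again with replicate 3 the lowest. Its log2 fold change was -0.28 ± 0.061 (SE), with an adjusted p of 0.00956 in edgeR, and 0.0713 when all 24 libraries shared 1 fit.

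DNAJB1 (HSP40), the J protein that serves HSP70, had 289, 300.3 and 284 CPM in the controls and 266, 266 and 251 CPM with Ocoxin in TNBC. The gap between the lowest control and the highest Ocoxin library was narrower than in HSPA8. DNAJB1 thus had a log2 fold change of -0.16 ± 0.038 (SE) with an adjusted p of 0.0115 in edgeR, which rose to 0.0534 without control replicate 2.

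HSPH1 (HSP110), the nucleotide exchange factor of HSP70, had 181, 165 and 173 CPM in the TNBC controls against 149.9, 157 and 158 CPM with Ocoxin. The groups did not overlap, but the lowest control and the highest Ocoxin library were close. The log2 fold change was -0.16 ± 0.043 (SE) with an adjusted p of 0.0193 in edgeR. The call was lost without control replicate 1 (adjusted p = 0.0946), Ocoxin replicate 1 (0.0974) or Ocoxin replicate 2 (0.0538), and in the shared fit of 24 libraries (0.0968).

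BAG3, the co-chaperone that guides HSP70 clients to autophagy, had 91.1, 90.4 and 85.4 CPM in the TNBC controls and 101, 97.1 and 86.9 CPM with Ocoxin. The groups overlapped, since Ocoxin replicate 3 lay among the controls. BAG3 had a log2 fold change of 0.10 ± 0.056 (SE), in the other direction from the 5 cytosolic genes called, with an adjusted p of 0.256 in edgeR, and 0.0276 without Ocoxin replicate 3.

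**Figure D1:**
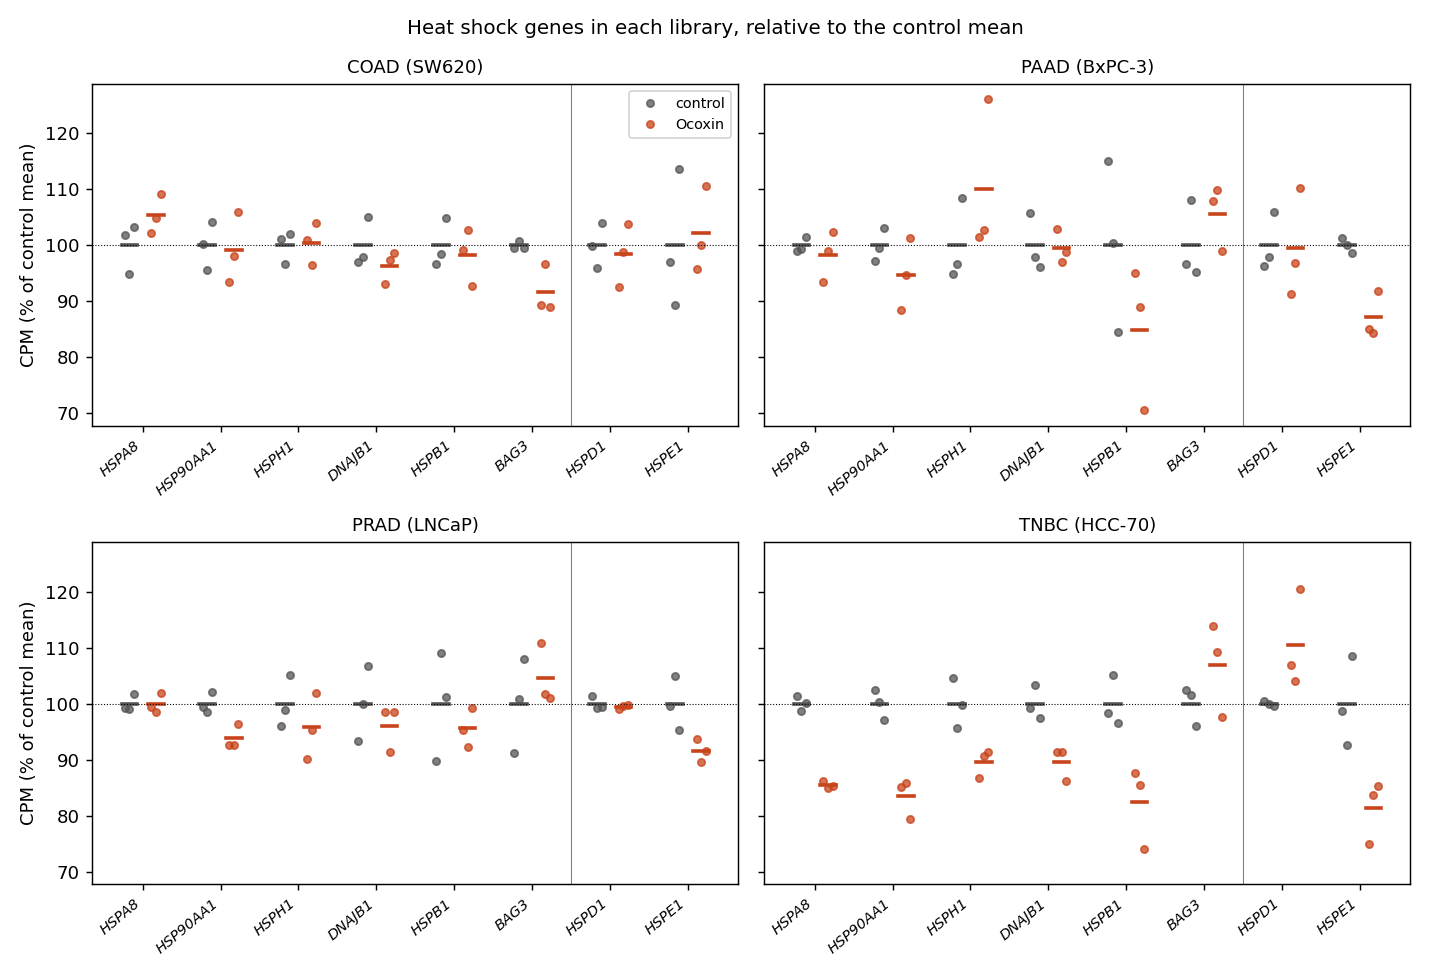
CPM of 8 heat shock genes in each library, as a percentage of the mean of the 3 control libraries of the same line (dots, libraries; bars, group means; grey, control; orange, Ocoxin); the vertical line parts the 6 cytosolic from the 2 mitochondrial genes. In TNBC all Ocoxin libraries of HSPA8 lie between 85.0% and 86.3% of the control mean, while in the other lines most groups overlap.

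The 2 subunits of the mitochondrial chaperonin did not move together in TNBC. HSPE1 had 19.6, 18.4 and 21.6 CPM in the controls and 14.9, 16.6 and 16.98 CPM with Ocoxin. All Ocoxin libraries were below all controls. The log2 fold change was -0.30 ± 0.082 (SE) with an adjusted p of 0.022 in edgeR, and the call was lost without control replicate 1 (0.0621), control replicate 3 (0.0839) or Ocoxin replicate 1 (0.0992).

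HSPD1 had 323, 321 and 320.2 CPM in the TNBC controls and 344, 335 and 387 CPM with Ocoxin. All Ocoxin libraries were higher, replicate 3 by the most. Its log2 fold change was 0.14 ± 0.049 (SE) with an adjusted p of 0.055 in edgeR, just outside the threshold, while it was 0.000406 with the replicate number as a block and 0.0388 with DESeq2. Without Ocoxin replicate 3 the log2 fold change was 0.08 (0.135 in edgeR).

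The ratio of HSPD1 to HSPE1 shows the parting of both genes in single libraries. In TNBC it was 16.4, 17.4 and 14.8 in the controls and 23.03, 20.1 and 22.8 with Ocoxin. In COAD the ratio ran from 21.5 to 25.2 in the controls and from 22.03 to 23.2 with Ocoxin, in PAAD from 13.5 to 15.3 against 15.3 to 17.1, and in PRAD from 7.55 to 8.33 against 8.46 to 8.88. The groups overlapped in COAD, touched in PAAD and were apart in PRAD by a narrow margin. In PAAD, PRAD and TNBC each Ocoxin library had a higher ratio than the control of its own number, and in COAD 1 of 3 had. Whether the change of the ratio differed between lines was not tested. The ratio is not corrected for the length of the canonical transcripts, 2245 bases for HSPD1 and 557 for HSPE1. Pseudogenes held 17.7% to 23.1% of the sum of HSPE1 and pseudogene counts in PRAD, against 36.3% to 43.3% in TNBC. The level of the ratio is therefore no ratio of transcripts and is not compared between lines.

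**Figure D2:**
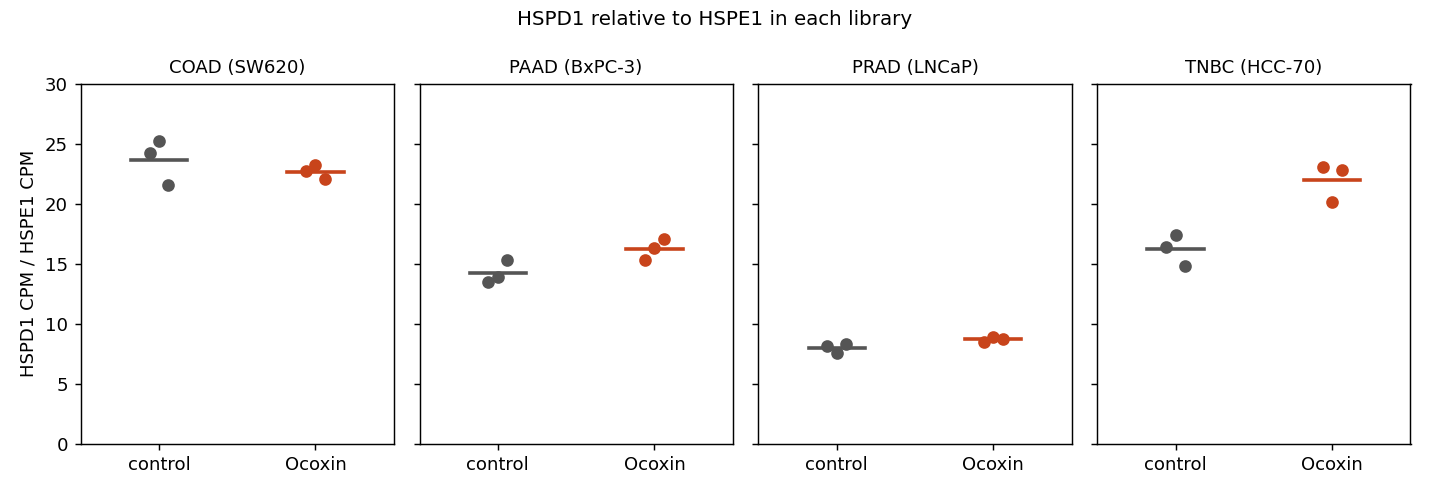
Ratio of HSPD1 CPM to HSPE1 CPM, not corrected for transcript length, in each library of the 4 lines, control and Ocoxin (dots, libraries; bars, means of 3 libraries). In TNBC the 3 Ocoxin libraries lie between 20.1 and 23.03 and the controls between 14.8 and 17.4.

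Of the 8 genes tested, HSPE1 has the largest share of sequence in common with other genes. It has 26 annotated pseudogenes, which held between 36.3% and 43.3% of the sum of HSPE1 and pseudogene counts in TNBC, and 31.7% of its 100-base stretches occur in another gene. Its exons share 281 of 1977 bases with HSPD1 on the other strand, and the counting did not use the strand. With the pseudogene counts added, the log2 fold change in TNBC was -0.31 with an adjusted p of 0.0072 in edgeR.

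Some of the other cytosolic chaperones fell in TNBC as well. Of 29 further cytosolic chaperones and co-chaperones tested 12 were lower and 0 were higher, where 11.3% of all genes tested were lower and 9.65% higher. Their median log2 fold change was -0.10. Among the genes called, the largest decreases were those of HSPB8, a small heat shock protein that works with BAG3, by 0.65 on the log2 scale (adjusted p = 0.00135 in edgeR, 0.112 in the shared fit of 24 libraries), and of DNAJB6, a J protein, by 0.30 (0.000175). All 8 subunits of TRiC, the cytosolic chaperonin that folds actin and tubulin, were lower, with CCT2 (log2 fold change -0.30, adjusted p = 0.00026 in edgeR) and CCT8 (-0.18, 0.0049) in front. Over all further lists 22 genes were called, where 21% of all genes tested were. It was 14 genes without control replicate 1 or without Ocoxin replicate 2. These lists were chosen with earlier results of these libraries known, so their direction is not independent evidence.

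Of 14 further mitochondrial chaperones and proteases 1 was called higher and 0 lower in TNBC, where 9.65% of all genes tested were higher and 11.3% lower. The list was thus not called higher more often than other genes. Its median log2 fold change was 0.07. The gene called was HSPA9 (mortalin), the HSP70 of the matrix. HSPA9 had 275, 267 and 289 CPM in the controls and 299, 304 and 331 CPM with Ocoxin, so its groups did not overlap. Its log2 fold change was 0.17 ± 0.045 (SE) with an adjusted p of 0.0197 in edgeR. The call was lost without control replicate 1 (0.0746) or control replicate 2 (0.0932). With the replicate block 3 of the 14 were higher, where 16.3% of all genes were, of 33.9% called.

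HSF1, the factor itself, had 163, 174 and 159.6 CPM in the TNBC controls and 181, 181 and 172 CPM with Ocoxin, so the groups overlapped. Its log2 fold change was 0.10 (adjusted p = 0.111 in edgeR, 0.0109 with the replicate block). HSF2 had a log2 fold change of -0.01 (0.961 in edgeR). The list of 4 genes held the factors HSF1, HSF2 and HSF4 and HSBP1, which binds HSF1 trimers and is no factor itself. Only HSBP1 was called, with a log2 fold change of -0.25 (0.00122 in edgeR). Over all genes tested 21% were called. Activity of HSF1 is set on the protein, which was not measured.

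In COAD none of the 8 genes was called, where 2.55% of all genes were called, and DESeq2 called none either. Their log2 fold changes lay between -0.13 and 0.08, and 0 of 8 had an unadjusted p under 0.05. HSPA8 had 1703, 1589 and 1727 CPM in the controls against 1710, 1755 and 1826 CPM with Ocoxin. These groups overlapped, with a log2 fold change of 0.08 ± 0.045 (SE, adjusted p = 0.438 in edgeR). BAG3 was the only gene with all COAD Ocoxin libraries below the controls, as 10.4% of all genes had, with a log2 fold change of -0.13 (0.379 in edgeR). Of 26 other cytosolic chaperones tested, SERPINH1, the collagen chaperone, was higher (log2 fold change 0.23, adjusted p = 0.0131 in edgeR) and HSP90AB1 was lower (-0.18, 0.0201). SERPINH1 lost its call without control replicate 1 (0.108), control replicate 2 (0.0717) or Ocoxin replicate 2 (0.112), and HSP90AB1 without any 1 library (0.053 to 0.203) but Ocoxin replicate 1 (0.0346).

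In PAAD none of the 8 genes was called, where 8.33% of all genes were, 2 of 8 had an unadjusted p under 0.05 and DESeq2 called none. The replicate numbers were taken as pairs in PAAD, and with the replicate as a block 3 genes passed, where 23.1% of all genes did. HSPB1 had 321, 281 and 236 CPM in the controls and 265, 249 and 197 CPM with Ocoxin. The groups overlapped, yet each Ocoxin library was below the control of its own number. The log2 fold change was -0.24 ± 0.105 (SE, adjusted p = 0.194 in edgeR), and 5.79e-06 with the block. It was -0.12 without control replicate 1 or without Ocoxin replicate 3.

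HSPH1 in PAAD had 162, 165 and 186 CPM in the controls against 174, 176 and 216 CPM with Ocoxin. Here too the groups overlapped while each Ocoxin library was above the control of its number. The log2 fold change was 0.14 (adjusted p = 0.314 in edgeR, 0.00781 with the block), against -0.16 in TNBC, and it was 0.03 (0.837 in edgeR) without Ocoxin replicate 3. HSPE1 in PAAD had 29.8, 29.4 and 29.0 CPM in the controls and 25.03, 24.8 and 27.05 CPM with Ocoxin. The groups did not overlap, as was so for 13.9% of all genes in that direction. The log2 fold change was -0.20 (adjusted p = 0.116 in edgeR, 0.0199 with the block, 0.043 with pseudogene counts added).

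Of 28 other cytosolic chaperones tested in PAAD, HSPA2, an HSP70 known from the testis, was called higher (log2 fold change 0.57, adjusted p = 0.00899 in edgeR, 0.052 without control replicate 2), and none was lower. Over all genes tested 8.33% were called. With the block 2 were higher and 5 lower, and 5 of 8 TRiC subunits were lower where 0 were without it, while 11% of all genes were lower with the block. HSF1 had a log2 fold change of 0.13 (0.322 in edgeR, 0.0211 with the block). With the length and GC trend of each library removed its log2 fold change was 0.0055 (0.958), and 0.0053 (0.950) with the block too.

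In PRAD none of the 8 genes was called, where 2.98% of all genes were, 1 of 8 had an unadjusted p under 0.05 and DESeq2 called none. HSP90AA1 had all Ocoxin libraries, at 262, 262 and 272 CPM, below all controls, the lowest of which had 278 CPM. Its log2 fold change was -0.09 ± 0.033 (SE, adjusted p = 0.178 in edgeR), and -0.16 (0.0221) after each library's trend with length and GC content of the genes was removed. HSPE1 also had no overlap, as 12.4% of all genes had in that direction, with a log2 fold change of -0.13 (0.409 in edgeR). Of 27 other cytosolic chaperones none was called (0 of 8 TRiC subunits), and with the replicate block 2 were higher and 1 lower, where 8.5% of all genes were called.

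HSPA8 and HSPD1 varied less in PRAD than counting alone would give on average, a comparison of SDs over 6 libraries with no test. HSPA8 had between 2016 and 2061 counts in the 6 PRAD libraries, or 0.890 to 0.910 counts per base of its canonical transcript. Their SD of 18.3 was below the square root of the mean, 45.2, which is the spread that independent counting would give. HSPD1 likewise had an SD of 25.3 against 42.4. HSPE1 lay about at that spread, with 14.3 against 14.7, and the other 5 genes lay above it, among them HSP90AA1 (89.8 against 50.4) and HSPH1 (72.7 against 39.9). PRAD was counted in a run of its own after duplicate removal, whose part in this was not tested, and the log2 fold changes of HSPA8 (0.00) and HSPD1 (-0.01) in PRAD carry this limit. HSP90AA1 had about as many counts per base as HSPD1 in PRAD, 0.759 to 0.820 against 0.783 to 0.811. Whether its fold change carries the limit was not tested. With the counts corrected for reads of the same start, still none of the 8 genes was called. That correction used the whole exonic length of a gene, over which HSPA8 had 0.416 to 0.425 counts per base. It is thus weaker than 1 over the canonical transcript and cannot show that the limit was removed.

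**Figure D3:**
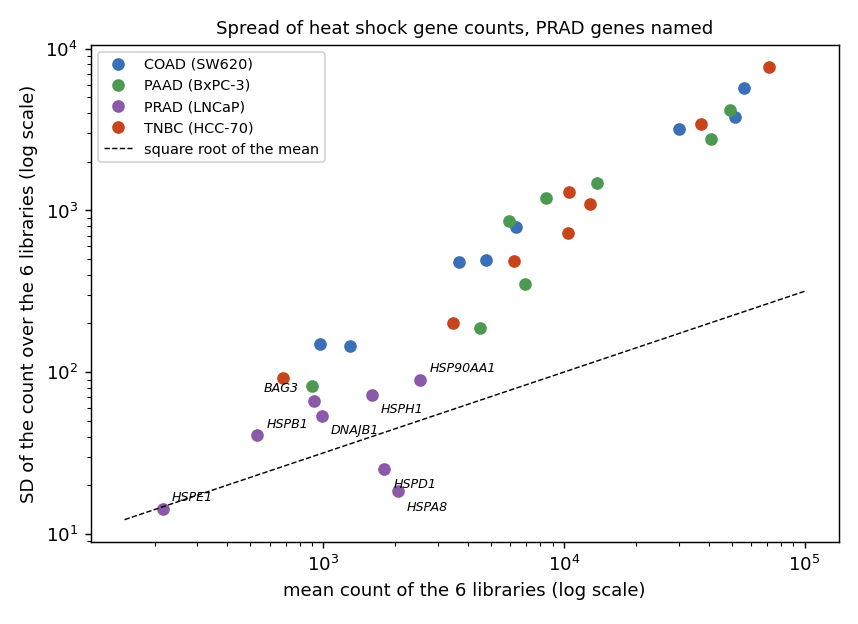
SD of the deposited counts over the 6 libraries of a line against their mean for 8 heat shock genes (both axes logarithmic; the SD includes differences in depth and treatment; dashed, square root of the mean). HSPA8 and HSPD1 in PRAD lie well below the dashed line, at SDs of 18.3 and 25.3, and HSPE1 in PRAD lies almost on it.

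HSPA6, the HSP70 that is made only under stress, was singled out in PRAD after its values were seen. It had 7, 8 and 8 counts in the controls and 114, 25 and 18 counts with Ocoxin. Every Ocoxin library was higher, but replicate 1 held most of the counts. HSPA6 had a log2 fold change of 2.75 ± 0.814 (SE) with an adjusted p of 0.115 in edgeR, which was 0.0197 with the replicate block and 0.00133 with DESeq2. Without Ocoxin replicate 1 the log2 fold change was 1.48 (0.0874 in edgeR). In TNBC HSPA6 had 124, 90 and 122 counts in the controls and 83, 98 and 64 with Ocoxin (adjusted p = 0.152 in edgeR).

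Whether the cytosolic genes moved apart from the mitochondrial genes was described by the median log2 fold change of the 6 cytosolic minus that of the 2 mitochondrial genes. TNBC had -0.12, COAD -0.02, PRAD 0.01 and PAAD 0.09. The SD between libraries of the same group was 0.12, 0.07, 0.07 and 0.08 in the same order, so only the PAAD value exceeded it, and by little. In TNBC the median of the mitochondrial pair, -0.08, stands between 0.14 for HSPD1 and -0.30 for HSPE1 and describes neither gene.

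**Figure D4:**
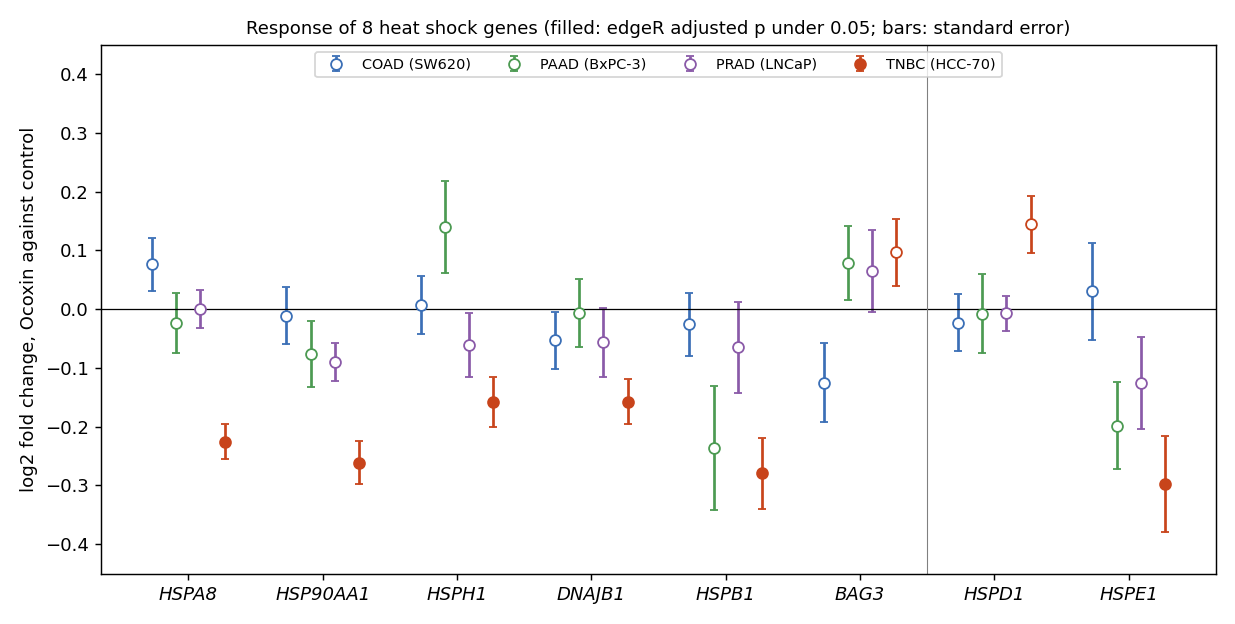
Log2 fold change of Ocoxin against control with its standard error for 8 heat shock genes in 4 lines (filled, adjusted p under 0.05 in edgeR; open, not). All 6 filled symbols are TNBC decreases, and HSPD1 in TNBC lies above 0 at 0.14.

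The responses were compared between lines by the interaction of line and treatment, fitted over the 24 libraries together. They differed among the lines for 2 of 8 genes, where 10.9% of all genes did. These were HSPA8 (adjusted p = 0.00144 in edgeR) and HSP90AA1 (0.0353). The HSPA8 response in TNBC was lower than in COAD by 0.31 ± 0.056 (log2, SE, adjusted p = 0.000387 in edgeR), than in PAAD by 0.21 (0.0219) and than in PRAD by 0.21 (0.0374), with the limit on PRAD counts given above. COAD and TNBC had the same dilution. HSP90AA1 in TNBC was lower than in COAD by 0.26 ± 0.067 (SE, 0.0125 in edgeR), and its other pairs did not pass. Over all genes the pairs were called for 6.78% (COAD and TNBC), 4.01% (PAAD and TNBC), 3.59% (PRAD and TNBC), 3.44% (COAD and PAAD), 3.29% (PAAD and PRAD) and 0.832% (COAD and PRAD).

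For the remaining 6 genes the difference among lines did not pass, among them HSPH1 (adjusted p = 0.0968 in edgeR) and HSPD1 (0.418). With the replicate block 5 genes passed, HSPH1 (0.00038), HSPB1 (0.00711) and HSPE1 (0.0122) in addition, where 23.3% of all genes did. The HSP90AA1 call was lost when control replicate 1 (0.190) or 2 (0.261), or Ocoxin replicate 2 (0.130) or 3 (0.180), was left out of every group.

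The lines differed far more in their control levels than in their responses. Between COAD, PAAD and TNBC, counted in 1 table, 21 of 24 comparisons of a gene between a pair of lines were called, where 77.3% (COAD against PAAD), 81.6% (COAD against TNBC) and 75.3% (PAAD against TNBC) of all genes were called. The test scaled the 18 libraries together, whereas the CPM given here were scaled within each line, so ratios of these CPM differ from the fitted differences: for HSP90AA1 the fitted COAD minus PAAD difference was 0.06 (log2). BAG3 spread the widest, at 33.8 ± 0.246 CPM (SD, n = 3) in COAD, 89.0 ± 3.10 in TNBC and 205 ± 14.6 in PAAD. HSPB1 was lower in COAD, at 124 ± 5.35 CPM, than in PAAD, at 279 ± 42.7, and in TNBC, at 306 ± 13.8, and PAAD and TNBC did not differ (adjusted p = 0.664 in edgeR).

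The mitochondrial genes were highest in COAD and lowest in TNBC. HSPD1 stood at 1009 ± 40.5 CPM (SD, n = 3) in COAD, 419 ± 21.6 in PAAD and 321 ± 1.25 in TNBC. HSPE1 followed the same order, at 43.0 ± 5.31, 29.4 ± 0.408 and 19.9 ± 1.59 CPM. HSPA8 of the cytosol had this order too, at 1673 ± 73.99, 1254 ± 17.2 and 1058 ± 14.3 CPM, with fitted differences of 0.18 between COAD and PAAD and 0.32 between PAAD and TNBC (log2). DNAJB1 was highest in TNBC, at 291 ± 8.60 CPM, against 215 ± 9.42 in COAD and 137 ± 6.997 in PAAD. HSP90AA1 did not differ between COAD and PAAD (adjusted p = 0.329 in edgeR), nor HSPH1 between PAAD and TNBC (0.436). HSPH1 was lower in COAD, with a fitted COAD minus PAAD difference of -0.35 (log2, adjusted p = 2.09e-05 in edgeR). Its COAD minus TNBC difference was -0.29 (0.000181).

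Per kilobase of canonical transcript, HSPA8 led in the COAD controls with 739 ± 32.7 CPM per kb (SD, n = 3) and in the PAAD controls with 554 ± 7.60. HSP90AA1 led in the TNBC controls, with 633 ± 17.1 CPM per kb against 467 ± 6.33 for HSPA8. HSPH1 was among the lowest, at 30.2 to 33.0 CPM per kb in these 3 lines.

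**Figure D5:**
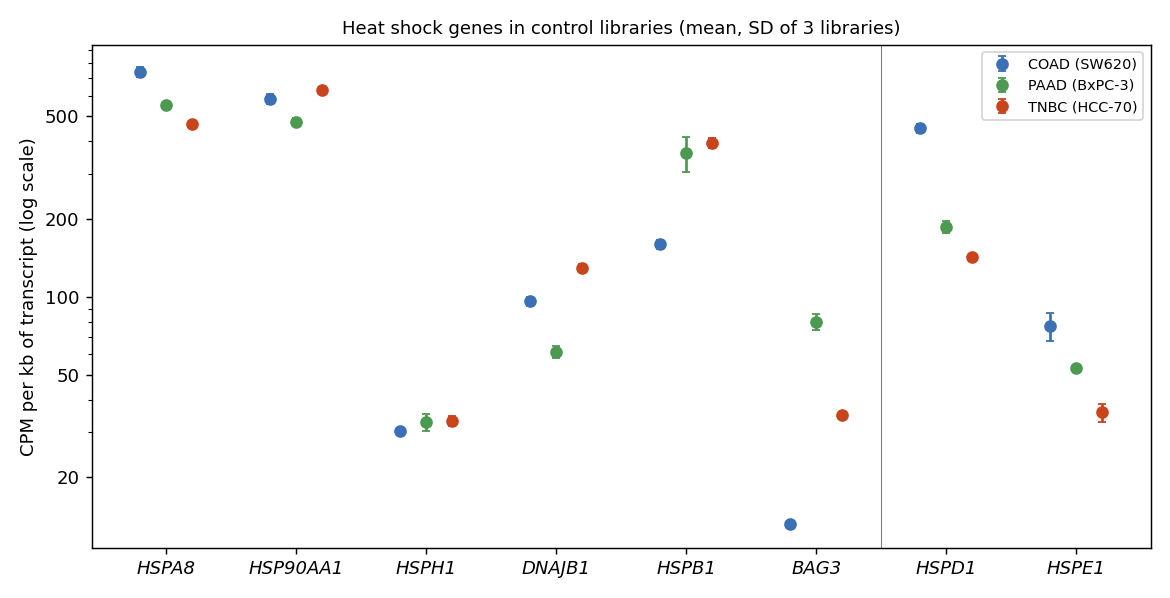
CPM per kilobase of canonical transcript (log axis) of 8 heat shock genes in the control libraries of COAD, PAAD and TNBC (mean and SD of 3 libraries). BAG3 runs from 13.2 in COAD to 80.1 in PAAD, while HSPH1 lies between 30.2 and 33.0. The CPM were scaled within each line. In the fit over 18 libraries HSPH1 was lower in COAD than in PAAD and in TNBC.

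Likeness was measured as the Pearson correlation over 24 libraries of log2 CPM minus the mean of the line, against the mean of the 6 cytosolic genes, over 7990 protein-coding genes with a mean of at least 10 CPM in every line. The most alike were ARPC1A (0.932), TAGLN2 (0.917), MDH2 (0.916), EIF3I (0.915) and HDGF (0.912). For the mean of the mitochondrial pair they were PSMD14 (0.884), TMED2 (0.878), ETF1 (0.874), NAE1 (0.867) and EIF4E (0.864). Nothing says whether the libraries of a group came from separate cultures, and no test was made, so these values are a description.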

How the data were processed

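Reads were processed by the authors with fastp (trimming), STAR (alignment to hg38), picard (duplicate removal) and featureCounts 2.0.3 (reads on exons). The deposited counts are whole, not normalized and unstranded, with the exonic length per gene, in 2 tables: 6 PRAD libraries without the paired-end option, and COAD, PAAD and TNBC with it. The members and lists were chosen with earlier results of these data known. Each line was filtered with filterByExpr, scaled with TMM and tested with the robust quasi-likelihood fit of edgeR 4.0.16 (R 4.3.3), with adjustment over all genes tested, and DESeq2 1.42.0 was an alternative. The script was tested on simulated data. Besides the members, the text names the called genes with the largest 2 increases and 2 decreases of each further list in each line, and HSF1, HSF2, HSPA9 and HSP90AB1. The replicate numbers of the titles were taken as pairs in PAAD, PRAD and TNBC. There the deviations from the group means of same-numbered libraries correlated at 0.314 to 0.615, 0.176 to 0.605 and 0.285 to 0.629 over genes of at least 10 CPM. In COAD the lowest was 0.081. Over all genes tested the lowest values in PAAD, PRAD and TNBC were 0.024, 0.091 and 0.062, so the pairing rests on the abundant genes. Over genes of at least 10 CPM, replicates 1 and 2 also correlated across numbers. These values were 0.137 and 0.211 in PAAD, 0.133 and 0.137 in PRAD and 0.252 and 0.346 in TNBC. In TNBC this was about as high as within numbers 1 and 2, so there only replicate 3 stood apart. Of the line markers, KLK3 was highest in PRAD, VIL1 and CDX2 in COAD and KRT7 and KRT17 in PAAD; KRT5 in TNBC was above COAD and PRAD and below PAAD. Canonical transcripts came from GENCODE 44 and start windows from RefSeq.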

Additional observations from a re-analysis of the deposited data

Results flagged for a closer look

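The response to Ocoxin differed among the 4 cell lines for HSPA8 (adjusted p = 0.00144 for the interaction in edgeR) and for HSP90AA1 (0.0353). Over the alternatives the adjusted p ran from 1.06e-06 to 0.0368 for HSPA8 and from 1.69e-05 to 0.261 for HSP90AA1. With COAD, PAAD and TNBC only, which leaves out the PRAD libraries, it was 0.00366 for HSPA8 and 0.0451 for HSP90AA1.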

How the results depend on the processing

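The number of members called was 0 in COAD, PAAD and PRAD and 6 in TNBC. It became 2 in COAD with the length and GC trend removed and the replicate block, 2 in PAAD with the trend removed and again with trend and block, 1 in PAAD with pseudogene counts added, 3 in PAAD with the replicate block, and 1 in PRAD with the trend removed and 4 with trend and block. The share of all genes called is not given for the fits with the trend removed or pseudogene counts added. Those counts are therefore no result about the members. Leaving out 1 replicate kept 0 in these 3 lines. In TNBC the count ran from 4 to 7 when 1 library was left out. It stayed within 1.5 times of 6 under every alternative, which 4 only just meets. The number of members whose response differed between lines, 2, became 4 without a filter on low counts, 5 with the replicate block and 1 to 2 when a replicate was left out. The differences between cytosolic and mitochondrial medians moved under all alternatives by less than the SD of single libraries given above, which is an SD of means and not of medians. The 21 control comparisons called stayed at 20 or 21 when a replicate was left out.

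No call of a single member was reversed. Uncalled values near 0 changed sign: HSPE1 in COAD (-0.0061 with the trend removed, -0.0012 with the block too), HSPD1 in PAAD (0.021, 0.018), BAG3 in PRAD (-0.010, -0.0082), and HSPA8 in PRAD (0.0053 with at least 10 counts in every library, 0.0081 with pseudogene counts added). Leaving out 1 replicate gave ranges across 0 in COAD for HSPH1 (-0.012 to 0.046), HSPB1 (-0.049 to 0.024), HSP90AA1 (-0.051 to 0.037), HSPD1 (-0.053 to 0.026) and HSPE1 (-0.042 to 0.139), in PAAD for DNAJB1 (-0.037 to 0.036), HSPA8 (-0.054 to 0.011) and HSPD1 (-0.087 to 0.050), and in PRAD for HSPA8 (-0.021 to 0.0099) and HSPD1 (-0.027 to 0.0010). The causes were not tested. The other chaperones called went from 0 to 19 in PRAD with the trend removed and to 30 with the block too, and from 2 to 9 in COAD and 1 to 17 in PAAD with the replicate block. Over all genes the block raised the share called in PAAD from 8.33% to 23.1%. No such share is given for the trend fits or for COAD with the block, so these counts do not single out chaperones. In COAD the libraries share only a number. The PRAD correction for reads of the same start combined with the block was added after the data were seen and called no member. It used the exonic length too.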
